A study of Homo sapiens with 6 samples.

Results

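The transcripts examined here were 49 pseudogenes of abundant housekeeping mRNAs, expressed in HCT116 cells with and without overexpression of SNORA28. They were all the genes with a GENCODE pseudogene biotype, a symbol beginning with 1 of 20 stems (HNRNPA1P, PPIAP, GAPDHP, HSPD1P, HSPE1P, TPT1P, FTH1P, FTLP, ACTBP, ACTG1P, KRT8P, KRT18P, HMGB1P, HMGN2P, PTMAP, NPM1P, TUBBP, TUBAP, YWHAZP or NACAP) and an average of 1 FPKM or more in the 6 libraries, so that they were chosen by annotation, name and measured level. The stems held 662 annotated pseudogenes among the 60612 genes of each file, so 613 fell below the level. HCT116 is an established human colorectal carcinoma cell line. One group of 3 libraries, LV-NC, came from cells infected with a negative control lentivirus, and the other group of 3, LV-SNORA28, from cells infected with a lentivirus carrying SNORA28, an H/ACA small nucleolar RNA. Both groups carried a lentiviral vector, both were collected at the same time after infection, and no uninfected cells were included. Libraries were made from RNA selected with oligo(dT), strand-marked with dUTP, and sequenced as paired reads of 150 bases.

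A processed pseudogene is the genomic copy of an mRNA that was reverse-transcribed and inserted elsewhere in the genome. Such copies usually lack introns and a promoter of their own, and they have gathered substitutions and small gaps that break the reading frame. Genes whose mRNAs are abundant in the germ line tend to have left many copies, and ferritin, cyclophilin A, keratins and GAPDH are known examples. In short-read sequencing, a read from a copy can be told from a read of the parent mRNA only where the sequences differ.

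FPKM is a fragment count divided by the length of the transcript and by the number of fragments mapped in that library. The read depth of these libraries was not given, so no counting interval is attached to any value. The labels do not say whether the 3 libraries of a group came from separate cultures, so p-values measure the spread between these libraries, which may be technical. SNORA28 itself was at 0.92, 0 and 0.64 FPKM with LV-NC against 15.01, 13.66 and 15.2 FPKM with LV-SNORA28. Of 10 colorectal epithelial markers, 9 were at 1 FPKM or more, with sums of 808 to 894 FPKM with LV-NC against 826 to 876 with LV-SNORA28. Of 14 markers of fibroblasts, leukocytes and endothelium, COL1A1 alone reached 1 FPKM, 3 were at 0 in every library, and sums were 3.35 to 4.68 FPKM. The mitochondrially encoded share of all FPKM was 44.4% ± 2.83 (SD, n = 3) with LV-NC against 37.3% ± 1.25 (SD, n = 3) with LV-SNORA28, without overlap. FPKM is a share of the whole library, so that difference bears on the level of every other gene, and its part in the results below was not tested.

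The 49 copies came from 15 parent genes. FTH1 had 9 of them, HNRNPA1 6, PPIA and PTMA 5 each, NPM1 4, and HSPE1, HMGB1 and YWHAZ 3 each. GAPDH, HSPD1, KRT8 and HMGN2 had 2 each, and FTL, TUBB and TUBA1B 1 each. No copy of TPT1, ACTB, ACTG1, KRT18 or NACA reached the level. The copies lay on 21 chromosomes, 48 were annotated with a single exon, and their lengths ran from 273 to 1726 nt with a median of 646 nt. Identity to the parent transcript was 87.1% to 99.6%, with a median of 97.1%, against a median of 88.7% for the 611 copies below the level that could be aligned. The best match among all protein-coding transcripts was the parent for 48 copies. The exception was NPM1P7, which overlaps an exon of CLEC2D, a C-type lectin gene.

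The copies of FTH1, the heavy chain of the iron store ferritin, carried every call in the comparison of the groups. Over the aligned coding sequence, FTH1P10 carries 13 substitutions relative to FTH1, FTH1P3 22 and FTH1P5 23.

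Stretches of 4 other copies are shown because these copies were among the most abundant and resemble their parents closely, so that many reads could belong to either. Each stretch was placed near the first coding base that differs from the parent, so it need not be typical of the copy. Over all aligned coding bases, HMGB1P6 carries 9 substitutions in 642, HMGN2P5 1 in 270, PPIAP22 2 in 495 and HNRNPA1P10 4 in 959. Each line gives 100 bases on GRCh38, read 5′ to 3′ on the strand of the gene, and capitals mark bases that differ from the parent line above each copy.
HMGB1: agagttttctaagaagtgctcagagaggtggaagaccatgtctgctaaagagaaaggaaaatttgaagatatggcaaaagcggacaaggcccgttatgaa
HMGB1P6: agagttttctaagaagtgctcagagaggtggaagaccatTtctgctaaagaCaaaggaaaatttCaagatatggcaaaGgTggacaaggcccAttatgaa
HMGN2: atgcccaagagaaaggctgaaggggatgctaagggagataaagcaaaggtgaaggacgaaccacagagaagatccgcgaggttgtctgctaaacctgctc
HMGN2P5: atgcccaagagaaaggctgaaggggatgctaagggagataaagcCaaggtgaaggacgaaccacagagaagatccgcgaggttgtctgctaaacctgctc
PPIA: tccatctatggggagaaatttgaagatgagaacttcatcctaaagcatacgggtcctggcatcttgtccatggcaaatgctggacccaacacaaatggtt
PPIAP22: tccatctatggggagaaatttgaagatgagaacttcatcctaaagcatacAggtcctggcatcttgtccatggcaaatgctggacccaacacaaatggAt
HNRNPA1: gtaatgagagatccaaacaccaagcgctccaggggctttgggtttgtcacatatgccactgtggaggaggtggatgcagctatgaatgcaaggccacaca
HNRNPA1P10: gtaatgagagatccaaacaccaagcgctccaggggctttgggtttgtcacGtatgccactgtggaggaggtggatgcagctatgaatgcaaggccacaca
The HMGN2P5 stretch (chr15:29730713-29730812, plus strand) differs from HMGN2 coding bases 1 to 100 at a single base. The HNRNPA1P10 stretch (chr19:11666799-11666898, minus strand) also differs at 1 base, the PPIAP22 stretch (chr21:18858007-18858106, plus strand) at 2 and the HMGB1P6 stretch (chr15:71165202-71165301, minus strand) at 6.

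Most copies were present at low levels. The median of the mean FPKM over 6 libraries was 2.72, 26 copies were below 3 FPKM and 13 were at 10 FPKM or more. The 5 most abundant, PTMAP5, HMGB1P6, NPM1P27, HMGB1P5 and PTMAP2, held 65.4% of the summed level. At the threshold, PPIAP53 (1.01 FPKM), PTMAP12 (1.01) and FTH1P20 (1.08) lay just inside, and KRT8P12 (0.855), NPM1P24 (0.762) and ACTG1P20 (0.747) just outside. Because the rule uses the mean of all libraries, 4 members (FTH1P20, FTH1P5, PPIAP53 and PTMAP12) had a mean below 1 FPKM with LV-SNORA28 and 1 (GAPDHP62) with LV-NC. Counts over the members therefore describe them and carry no test.

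The comparison between LV-NC and LV-SNORA28 asked which copies differed once SNORA28 was overexpressed. In limma on log2(FPKM + 1), 4 of the 49 copies were lower in LV-SNORA28 at an adjusted p below 0.05 and 0 were higher, all 4 being copies of FTH1. Over the 12076 genes tested, 8.91% were called, 2.10% lower and 6.81% higher. The lower share of the copies was 8.16%, against 13.3% of all 736 pseudogenes tested. At an unadjusted p below 0.05, 15 copies were lower, where the background was 6.08%, and 0 were higher, where it was 22.0%. The median log2 fold change of the 49 was -0.21, beside 0.09 over all genes tested. The log2 fold change lay below 0 for 35 of the 49 (71.4%), against a background of 33.3%. When every library was scaled to the same FPKM sum, which moved the median of all genes to 0.20, that count was 30, and after quantile normalization it was 40. The calls over all genes, 822 higher and 254 lower, split into 1923 higher and 138 lower with the first scaling and into 451 higher and 375 lower with the second. The 3 libraries of LV-SNORA28 lay wholly below those of LV-NC for 11 copies (22.4%, background 8.16%) and wholly above for 0 (background 27.0%). Of all 736 pseudogenes tested, 24.3% lay wholly below, so the share of the copies was near that of pseudogenes at large, and 64 lay wholly above. The log2 fold change was below 0 for 58.3% of the 736. At an unadjusted p below 0.05 in limma, 24.9% of them were lower, against 30.6% of the copies, and 59 were higher.

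**Figure D1:**
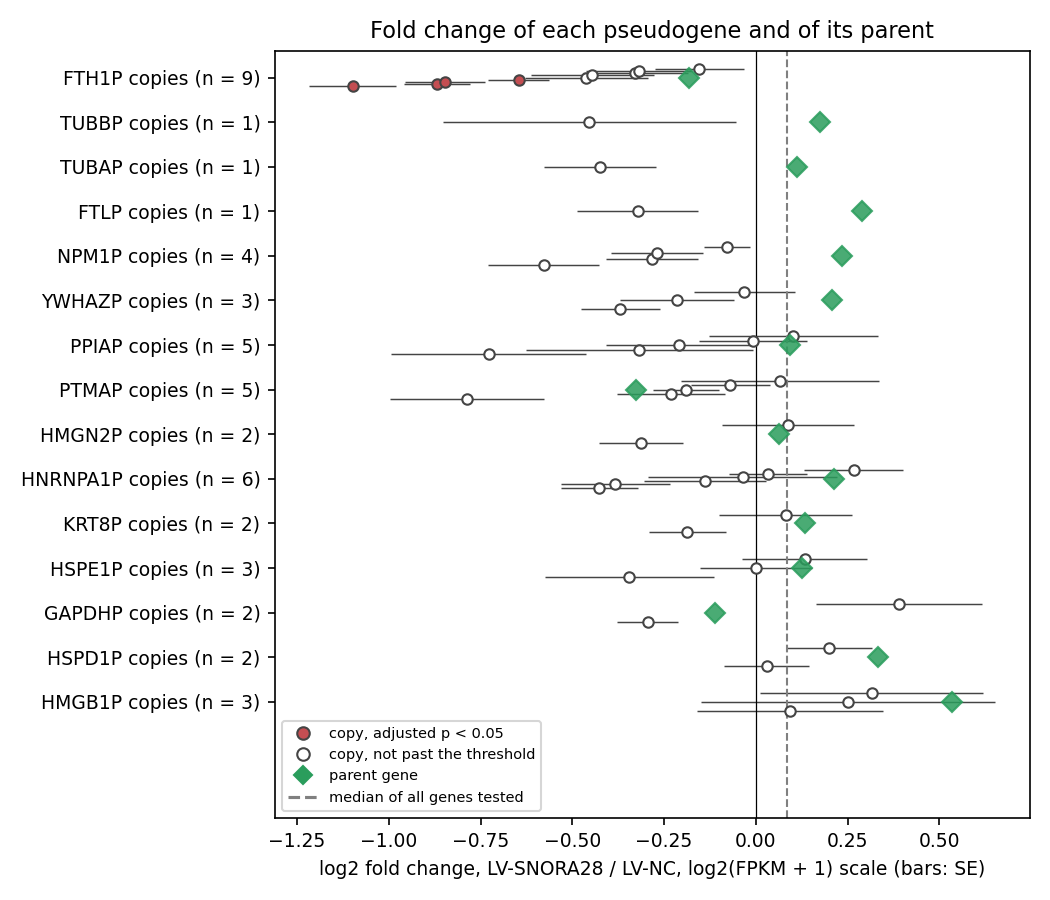
Log2 fold change (LV-SNORA28 over LV-NC, on the log2(FPKM + 1) scale) of each of the 49 copies by name stem, with bars for the SE, red fill for an adjusted p below 0.05 and a green diamond for the parent gene. The 4 red points are FTH1 copies at -1.10 to -0.65, and the dashed line at 0.09 is the median of all genes tested.

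The iron storage family was examined first. FTH1P11 (ENSG00000237264; GRCh38 chromosome 8, 81521682 to 81522232, minus strand) stood at 13.04, 13.97 and 13.00 FPKM with LV-NC against 6.48, 6.15 and 4.60 FPKM with LV-SNORA28. The 3 LV-NC libraries lay close together and every LV-SNORA28 library was far below them. The mean fell 2.32-fold, with a log2 fold change of -1.10 (SE 0.12) and an adjusted p of 0.00634 in limma. Lying on the opposite strand of this copy are exons of 2 long noncoding RNAs, of which one was listed at 0 in all libraries and the other at 0.04 FPKM in 1 library.

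FTH1P10 (ENSG00000223361; chromosome 5, 17353695 to 17354624, minus strand), annotated as a transcribed processed pseudogene, stood at 3.52, 3.46 and 3.68 FPKM with LV-NC against 1.68, 1.57 and 1.25 FPKM with LV-SNORA28. The LV-NC libraries lay close together and the groups did not overlap. Its level fell 2.37-fold, with a log2 fold change of -0.87 (SE 0.09) and an adjusted p of 0.00611 in limma. The long noncoding RNA annotated on the other strand was listed at 0 in all 6 libraries.

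FTH1P5 (ENSG00000230204; chromosome 6, 50912712 to 50913256, minus strand) went from 2.05, 2.64 and 2.24 FPKM to 1.02, 0.81 and 0.69 FPKM. Its log2 fold change was -0.85 (SE 0.11, adjusted p = 0.0103 in limma), and it lies in no annotated protein-coding or long noncoding gene. The mean of FTH1P5 was 0.84 FPKM with LV-SNORA28 against 2.31 FPKM with LV-NC. It thus met the level of 1 FPKM only through the group where it was higher. FTH1P3 (ENSG00000213453; chromosome 2, 27392784 to 27393367, minus strand) went from 2.41, 2.25 and 2.01 FPKM to 1.04, 1.08 and 1.05 FPKM. The 3 LV-SNORA28 libraries were nearly equal and each was below every LV-NC library, with a log2 fold change of -0.65 (SE 0.08, adjusted p = 0.0102 in limma). FTH1P3 sits in an intron of PPM1G, a protein phosphatase gene on the same strand, which had a mean of 61.7 FPKM and a log2 fold change of -0.07 (adjusted p = 0.609 in limma). All 4 calls kept an adjusted p below 0.05 when any 1 of the 6 libraries was left out.

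The remaining 5 FTH1 copies did not pass the test. FTH1P23, in an intron of GXYLT2, had 2.95, 4.04 and 2.77 FPKM with LV-NC against 1.58, 2.68 and 2.13 FPKM with LV-SNORA28, without overlap (log2 fold change -0.45, adjusted p = 0.142 in limma). FTH1P2, the most abundant of the 9, had 15.51, 19.05 and 13.43 FPKM against 11.44, 13.51 and 9.12 FPKM, and here the groups overlapped slightly (log2 fold change -0.46, adjusted p = 0.133 in limma). FTH1P8, FTH1P7 and FTH1P20 had log2 fold changes of -0.33, -0.32 and -0.15, each with overlapping groups.

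Summed over its 9 copies, the FTH1 family stood at 61.1 ± 4.74 FPKM (SD, n = 3) with LV-NC against 38.8 ± 6.95 FPKM (SD, n = 3) with LV-SNORA28, without overlap. The 9 FTH1 copies below the level that were above 0 in any library summed to 0.833 ± 0.255 FPKM (SD, n = 3) and 0.517 ± 0.272 FPKM (SD, n = 3), and these sums overlapped. FTH1 itself varied widely between libraries, at 459.45, 863.39 and 525.29 FPKM with LV-NC against 579.36, 624.25 and 393.67 FPKM with LV-SNORA28. Its log2 fold change of -0.18 (SE 0.27) had an adjusted p of 0.707 in limma, and without LV-NC replicate 2 it was 0.09. The copies as a percent of FTH1 were 10.5% ± 2.58 (SD, n = 3) with LV-NC against 7.37% ± 0.630 (SD, n = 3) with LV-SNORA28, with overlap.

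**Figure D2:**
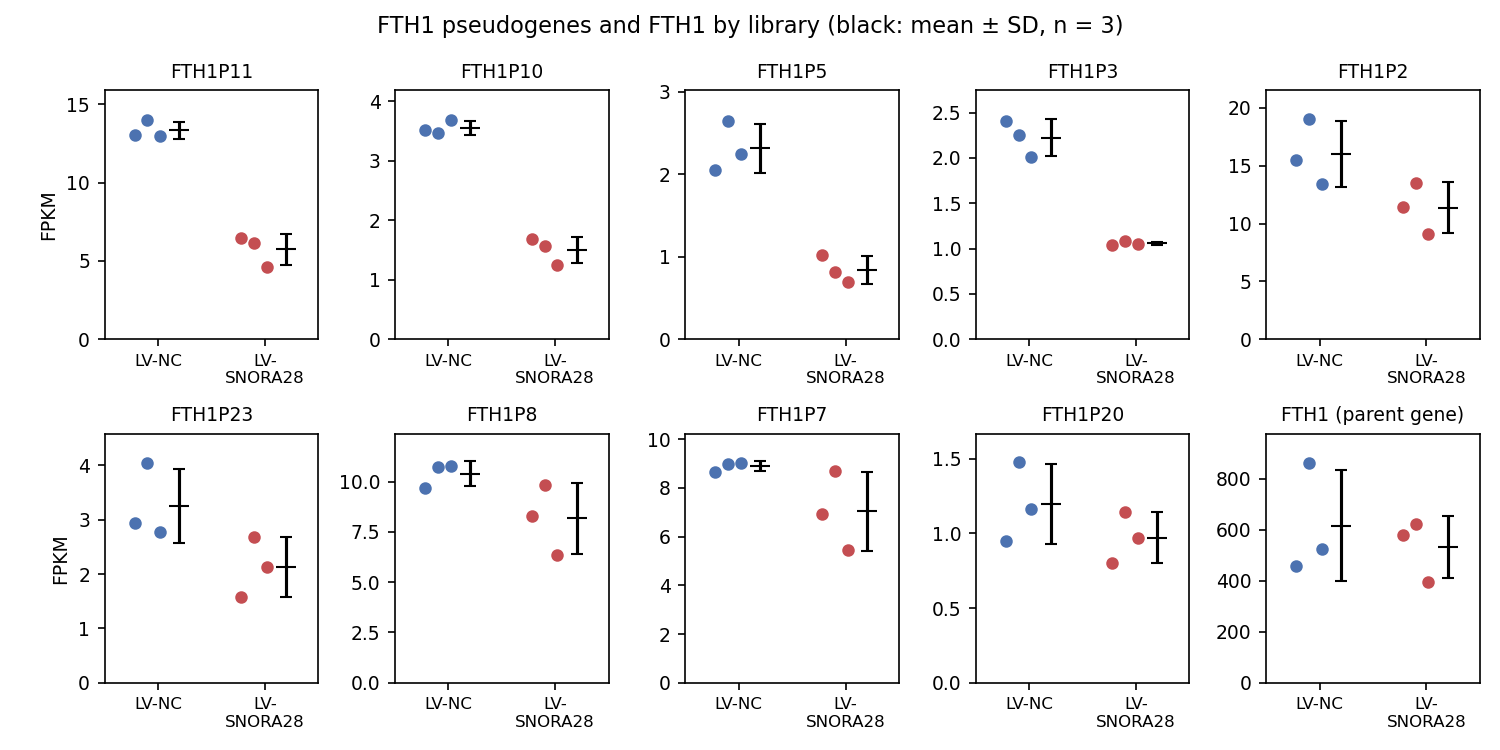
FPKM of the 9 FTH1 copies and of FTH1 in each library (points) with the group mean and SD (black, n = 3), on axes that start at 0. For FTH1P11, FTH1P10, FTH1P5, FTH1P3 and FTH1P23 the LV-SNORA28 points all lie below the LV-NC points, whereas for FTH1 the groups overlap.

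FTL, the light chain of ferritin, had 1 copy at the level. FTLP3 stood at 2.15, 2.76 and 2.03 FPKM with LV-NC against 1.45, 2.30 and 1.27 FPKM with LV-SNORA28 (log2 fold change -0.32, adjusted p = 0.257 in limma). Its parent lay at 1527.65, 1777.37 and 1573.09 FPKM with LV-NC against 1954.77, 2044.15 and 1954.34 FPKM with LV-SNORA28, wholly above, with a log2 fold change of 0.29 (adjusted p = 0.067 in limma). The copy and its parent thus had values on opposite sides of 0.

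Among the nuclear and chromatin proteins, HMGB1, a DNA-bending chromatin protein, had 3 copies, of which HMGB1P6 and HMGB1P5 were listed at higher means than the parent. HMGB1P6 stood at 117.26, 164.79 and 198.15 FPKM with LV-NC against 152.74, 228.47 and 133.18 FPKM with LV-SNORA28. HMGB1 had 32.12, 45.43 and 35.51 FPKM with LV-NC against 48.50, 56.27 and 59.01 FPKM with LV-SNORA28. HMGB1P6 was thus listed above its parent in all 6 libraries, at 429% ± 112 (SD, n = 3) of it with LV-NC. HMGB1P5 was at 144% ± 40.5 (SD, n = 3) of HMGB1 with LV-NC, and it lay below HMGB1 in LV-SNORA28 replicate 2. These 2 were the only copies of the 49 whose mean exceeded that of the parent, and HMGB1P10 was at 16.0% of HMGB1 with LV-NC. HMGB1P5, HMGB1P10 and HMGB1P6 had log2 fold changes of 0.32, 0.25 and 0.09 (adjusted p = 0.546, 0.726 and 0.847 in limma), and the libraries of each group spread widely. HMGB1P5 reached 103.01 FPKM in LV-SNORA28 replicate 3 and had a log2 fold change of -0.01 without it. HMGB1P10 read 9.80 FPKM in LV-NC replicate 1, against 4.18 and 2.99 FPKM in the others of that group, and its log2 fold change was 0.67 without that library.

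Prothymosin alpha, the small acidic nuclear protein made by PTMA, had the most abundant copy of all. PTMAP5 stood at 157.01, 209.07 and 189.75 FPKM with LV-NC against 180.99, 177.87 and 167.45 FPKM with LV-SNORA28 (log2 fold change -0.07, adjusted p = 0.723 in limma). PTMA had 385.05, 467.82 and 510.84 FPKM with LV-NC against 388.53, 331.64 and 362.39 FPKM with LV-SNORA28, with a log2 fold change of -0.33 (adjusted p = 0.133 in limma). PTMAP4 had 12.57, 7.58 and 6.52 FPKM with LV-NC against 4.67, 4.49 and 4.48 FPKM with LV-SNORA28. Those groups did not overlap, though LV-NC replicate 1 stood well above the other 2. The log2 fold change of PTMAP4 was -0.79 (SE 0.21, adjusted p = 0.0666 in limma), and without LV-NC replicate 1 it was -0.53 with an adjusted p of 0.0358. That was the only fit with a library left out in which PTMAP4 passed, and the adjusted p reached 0.171 in limma. PTMAP2, PTMAP12 and PTMAP9 had values of -0.19, -0.23 and 0.06.

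NPM1 encodes nucleophosmin, a nucleolar histone chaperone with a part in ribosome assembly. NPM1P27 was the most abundant of its 4 copies, with 75.80, 84.48 and 81.35 FPKM with LV-NC against 77.64, 77.40 and 73.46 FPKM with LV-SNORA28. The groups overlapped, and the log2 fold change was -0.08 (adjusted p = 0.461 in limma), or 0.07 with every library scaled to the same FPKM sum. NPM1P39 had 3.45, 3.34 and 2.86 FPKM with LV-NC against 1.26, 2.04 and 2.26 FPKM with LV-SNORA28, without overlap (log2 fold change -0.58, adjusted p = 0.0631 in limma). NPM1P7 and NPM1P6 had log2 fold changes of -0.28 and -0.27. The parent was at 268.21, 302.16 and 288.71 FPKM with LV-NC against 331.77, 350.49 and 327.86 FPKM with LV-SNORA28, wholly higher (log2 fold change 0.23, adjusted p = 0.078 in limma).

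HMGN2, which binds nucleosomes, had 2 copies. HMGN2P5 stood at 19.31, 22.23 and 23.05 FPKM with LV-NC against 14.60, 18.09 and 18.87 FPKM with LV-SNORA28, without overlap (log2 fold change -0.31, adjusted p = 0.134 in limma). HMGN2P3 had a log2 fold change of 0.09. The HNRNPA1 copies, derived from an RNA-binding protein of splicing and mRNA export, divided by level. HNRNPA1P10 and HNRNPA1P7, at means of 27.6 and 19.8 FPKM, had log2 fold changes of 0.03 and 0.27 (adjusted p = 0.872 and 0.257 in limma). The other 4, at means of 1.30 to 1.96 FPKM, had values of -0.43 to -0.04. Of these, HNRNPA1P4 came nearest to the threshold, with 1.74, 1.88 and 2.13 FPKM with LV-NC against 1.30, 1.28 and 0.94 FPKM with LV-SNORA28 (log2 fold change -0.43, adjusted p = 0.0541 in limma).

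Among copies of chaperones and enzymes, the cyclophilin A gene PPIA, a prolyl isomerase, gave 5. PPIAP22 was the most abundant, at 32.74, 56.64 and 43.36 FPKM with LV-NC against 56.82, 48.13 and 36.53 FPKM with LV-SNORA28 (log2 fold change 0.10, adjusted p = 0.813 in limma). PPIAP29 had 19.49, 15.30 and 17.35 FPKM with LV-NC against 16.13, 8.46 and 7.32 FPKM with LV-SNORA28. LV-SNORA28 replicate 1 thus lay within the range of LV-NC and the other 2 below it. Its log2 fold change was -0.73 (SE 0.27, adjusted p = 0.134 in limma), and without LV-SNORA28 replicate 1 it was -1.04 with an adjusted p of 0.0244. That was the only fit with a library left out in which PPIAP29 passed. Without LV-SNORA28 replicate 3 the log2 fold change was -0.52, and the adjusted p over these fits reached 0.314 in limma. PPIAP53, PPIAP11 and PPIAP31 had values of -0.32, -0.21 and -0.01.

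GAPDH, an enzyme of glycolysis, gave GAPDHP1, which stood at 22.27, 21.30 and 21.03 FPKM with LV-NC against 16.32, 19.58 and 16.38 FPKM with LV-SNORA28, without overlap (log2 fold change -0.29, adjusted p = 0.0783 in limma). GAPDHP62, in an exon of ANKRD46, had the highest log2 fold change of the 49, 0.39 (adjusted p = 0.311 in limma), with levels of 0.48, 1.25 and 1.09 FPKM with LV-NC against 1.13, 1.23 and 2.30 FPKM with LV-SNORA28. ANKRD46, on the same strand, had a mean of 1.61 FPKM and a log2 fold change of 0.31 (adjusted p = 0.112 in limma). Whether the level of GAPDHP62 includes fragments of ANKRD46 was not tested. The copies of HSPD1 and HSPE1, the mitochondrial chaperonin and its co-chaperonin, had values of 0.03 for HSPD1P1, 0.20 for HSPD1P4, -0.35 for HSPE1P2 and 0.13 for HSPE1P4. HSPE1P3 had 1.39, 0.85 and 1.66 FPKM with LV-NC against 1.51, 1.13 and 1.20 FPKM with LV-SNORA28.

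Cytoskeletal and signalling parents completed the set. KRT8, an epithelial keratin, gave KRT8P3 (log2 fold change -0.19) and KRT8P33 (0.08). TUBAP2, a copy of alpha-tubulin, had 1.39, 2.21 and 2.24 FPKM with LV-NC against 1.20, 1.42 and 0.93 FPKM with LV-SNORA28 (log2 fold change -0.42, adjusted p = 0.13 in limma). TUBBP1, a copy of beta-tubulin, read 2.98, 2.87 and 3.20 FPKM with LV-NC against 3.13, 0.46 and 3.18 FPKM with LV-SNORA28. The log2 fold change of TUBBP1, -0.45, came from LV-SNORA28 replicate 2 and was 0.05 without it. YWHAZP10, a copy of the phosphoserine-binding protein 14-3-3 zeta, had 2.82, 2.43 and 1.97 FPKM with LV-NC against 1.64, 1.55 and 1.68 FPKM with LV-SNORA28, without overlap (log2 fold change -0.37, adjusted p = 0.0835 in limma). YWHAZP5 and YWHAZP3 had values of -0.21 and -0.03.

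**Figure D3:**
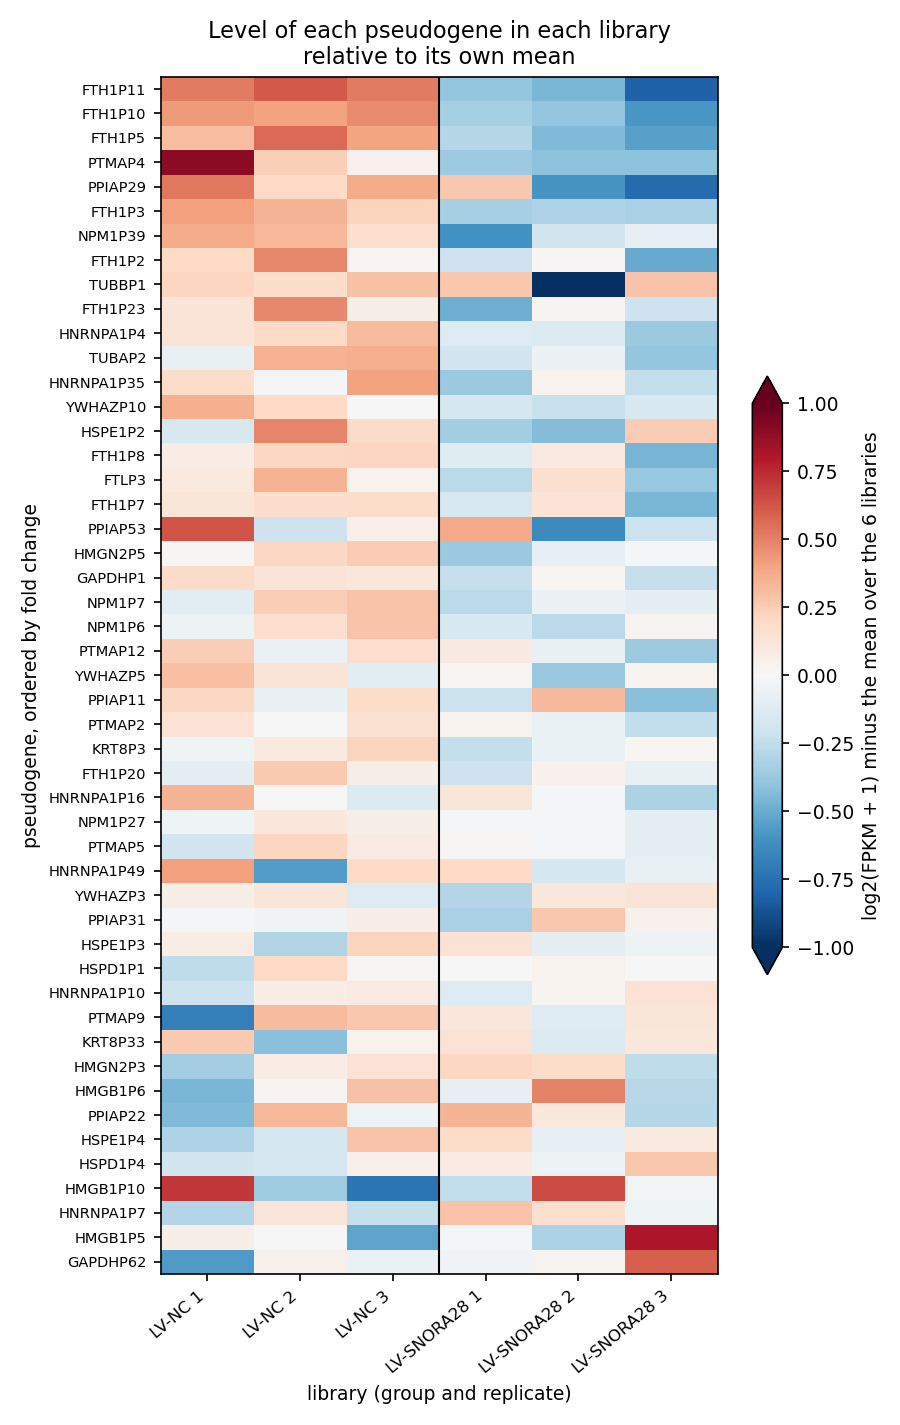
Level of each of the 49 copies (in order of fold change) in each library as log2(FPKM + 1) minus its own mean over the 6 libraries, with red for higher, blue for lower and the scale capped at 1 either way. FTH1 copies lead the top of the plot, and single dark cells mark TUBBP1 in LV-SNORA28 replicate 2, HMGB1P5 in LV-SNORA28 replicate 3 and PTMAP4 in LV-NC replicate 1.

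Each copy was next set against its own parent, which asks whether copy and mRNA differed together. Of the 22 parent genes of all 20 stems, 0 passed an adjusted p of 0.05 in limma, while 6 were higher and 1 lower at an unadjusted p below 0.05. HSPD1 came nearest, at 243.31, 266.10 and 284.19 FPKM with LV-NC against 310.61, 339.00 and 350.66 FPKM with LV-SNORA28 (log2 fold change 0.33, adjusted p = 0.053 in limma). The libraries of LV-SNORA28 lay wholly above those of LV-NC for 7 parents (HNRNPA1, PPIA, HSPD1, FTL, HMGB1, NPM1 and YWHAZ) of the 22, where the background over all genes was 27.0%, and wholly below for 2 (GAPDH and KRT18), where it was 8.16%. Both counts were near the background. For KRT18, TPT1, NACA and GAPDH the log2 fold changes were -0.11, -0.07, -0.10 and -0.11, and all 4 were above 0 when every library was scaled to the same FPKM sum. ACTG1 had 0.07, ACTB 0.04, TUBA1C 0.08, TUBA1A -0.18, TUBA1B 0.11, TUBB 0.17, KRT8 0.13, HSPE1 0.12 and HMGN2 0.06.

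The log2 fold change of the copy was below that of its parent for 39 of 49 copies (79.6%), with a median difference of -0.30. Over all genes tested, set against the same parents, 49.6% were below. Several copies share a parent, so these 49 differences rest on 15 parent values. Low copies are compressed on the log2(FPKM + 1) scale, and 1 differing parent moves all of its copies.

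In the ratio of copy to parent, taken per library as a difference of log2(FPKM + 1), LV-SNORA28 lay wholly below LV-NC for 14 copies (28.6%, background 14.7%) and wholly above for 2 (4.08%, background 10.9%). The smallest p that an exact two-sided permutation test of 3 against 3 libraries allows is 0.1. Any copy without overlap has that p, so for these 16 the test adds nothing to the separation itself. As a plain percent of the parent, 15 copies lay wholly below (background 13.3%) and 1, PTMAP5, wholly above (background 12.4%). FTH1P11 was at 2.84%, 1.62% and 2.47% of FTH1 with LV-NC against 1.12%, 0.985% and 1.17% with LV-SNORA28. On the log scale it was the only 1 of the 9 FTH1 copies without overlap, and the ratios of FTH1P10, FTH1P5 and FTH1P3 overlapped. As plain percents FTH1P10 and FTH1P5 lay wholly lower, whereas FTH1P3 was at 0.525%, 0.261% and 0.383% of FTH1 with LV-NC against 0.180%, 0.173% and 0.267% with LV-SNORA28, and overlapped.

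All 4 copies of NPM1 lay wholly lower against their parent, which itself lay wholly higher in LV-SNORA28. Of the 4, only NPM1P39 was also wholly lower in FPKM. The share over all genes set against NPM1 alone was not computed. NPM1P27 was at 28.3%, 28.0% and 28.2% of NPM1 with LV-NC against 23.4%, 22.1% and 22.4% with LV-SNORA28. These ratios spread over less than 1 percentage point within LV-NC although the FPKM of the copy overlapped between groups. NPM1P39 was at 1.13% ± 0.149 (SD, n = 3) of NPM1 with LV-NC against 0.550% ± 0.157 (SD, n = 3) with LV-SNORA28. HMGN2P5 went from 41.3%, 37.2% and 37.8% of HMGN2 to 28.6%, 24.9% and 36.0%. YWHAZP10 went from 2.46%, 1.93% and 1.67% of YWHAZ to 1.22%, 1.11% and 1.20%. Both copies that lay wholly higher on the log scale derived from PTMA. PTMAP5 was at 40.8%, 44.7% and 37.1% of PTMA with LV-NC against 46.6%, 53.6% and 46.2% with LV-SNORA28. PTMAP9 overlapped as a plain percent, with 0.535%, 1.09% and 0.967% with LV-NC against 1.11%, 1.05% and 1.20% with LV-SNORA28.

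Added together, the 49 copies stood at 854 ± 73.6 FPKM (SD, n = 3) with LV-NC against 815 ± 44.7 FPKM (SD, n = 3) with LV-SNORA28, and the groups overlapped. Their 15 parents summed to 7132 ± 559 FPKM (SD, n = 3) and 7443 ± 226 FPKM (SD, n = 3). The copies thus amounted to 12.0% ± 0.229 (SD, n = 3) of their parents with LV-NC against 10.9% ± 0.324 (SD, n = 3) with LV-SNORA28, without overlap. The difference, -1.03 percentage points, was 0.0163 percentage points for the copies with a mean of at least 5 FPKM and their parents. FTL made up much of the parent sum, and without FTL and FTLP3 the percents were 15.3%, 15.4% and 15.6% with LV-NC against 14.5%, 15.4% and 14.8% with LV-SNORA28, which overlapped. Without FTH1 and its copies the difference was -0.925 percentage points, and the groups did not overlap.

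**Figure D4:**
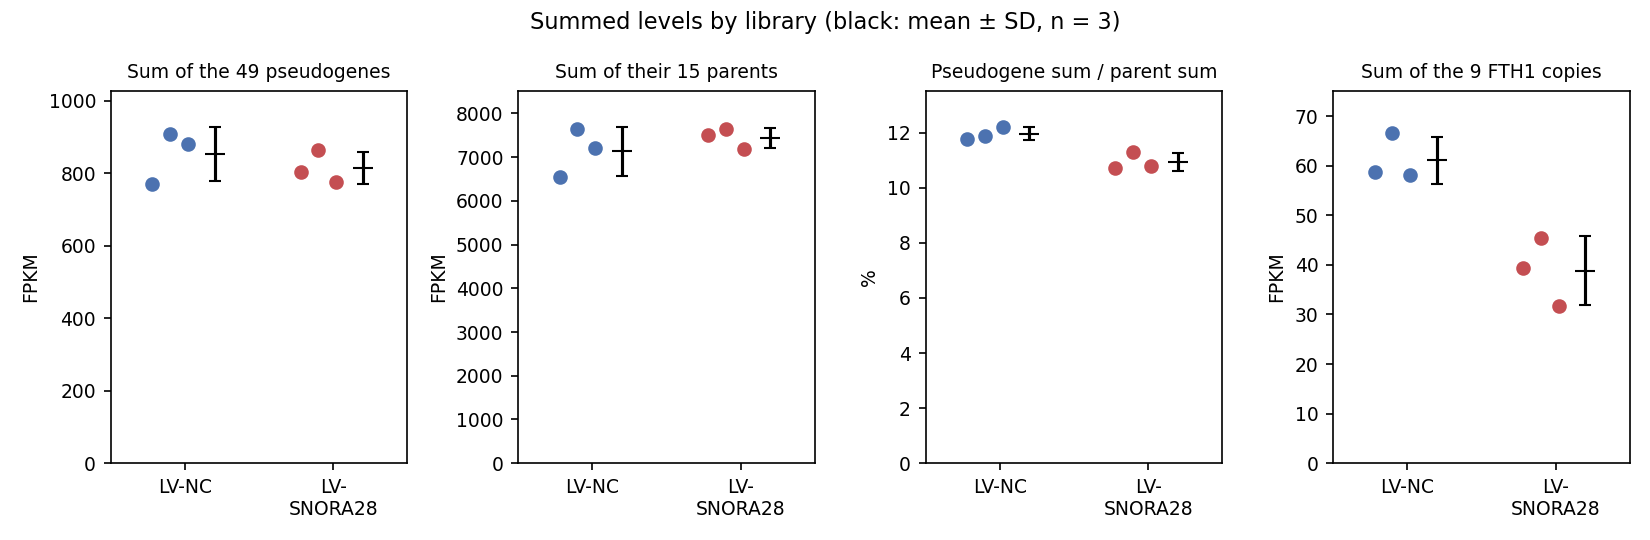
Summed FPKM of the 49 copies, of their 15 parents, the first as a percent of the second, and summed FPKM of the 9 FTH1 copies, in each library (points) with the group mean and SD (black, n = 3) on axes that start at 0. The percent and the FTH1 sum are separated between the groups, whereas the sums of all copies and of all parents overlap.

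How far a copy can be told from its parent was measured with windows of 150 bases, the read length. No window was identical to the parent transcript in 32 copies, and in 30 every window was also found at only 1 place in the genome. The 4 called copies were among these 30. In 8 copies (HMGB1P5, HMGB1P6, HMGN2P5, HNRNPA1P10, HNRNPA1P7, NPM1P27, PPIAP22 and YWHAZP3) at least 10% of windows matched the parent, up to 63.7% in HMGN2P5. These 8 had a median level of 36.6 FPKM and a median log2 fold change of 0.06, and the other 41 a median level of 2.56 FPKM and a median log2 fold change of -0.28. A read that matches both could have been assigned to either, so the levels of the 8 are uncertain, and the share of their reads that came from the parent was not tested. The windows count exact matches only, so they cannot show that the other 41 are free of parent reads. HMGN2P3, for example, is outside the 8 at 99.3% identity to HMGN2. Also outside the 8, 76.3% of the windows of PPIAP29 and 82.9% of those of PTMAP12 were found at only 1 place in the genome. The levels of these copies are therefore uncertain too. PTMAP5 had no shared window and a mean of 180 FPKM. Across the 49 copies, Spearman's rho was 0.60 between identity to the parent and mean FPKM and 0.25 between identity and log2 fold change. These are descriptions over copies that share parents and libraries.

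**Figure D5:**
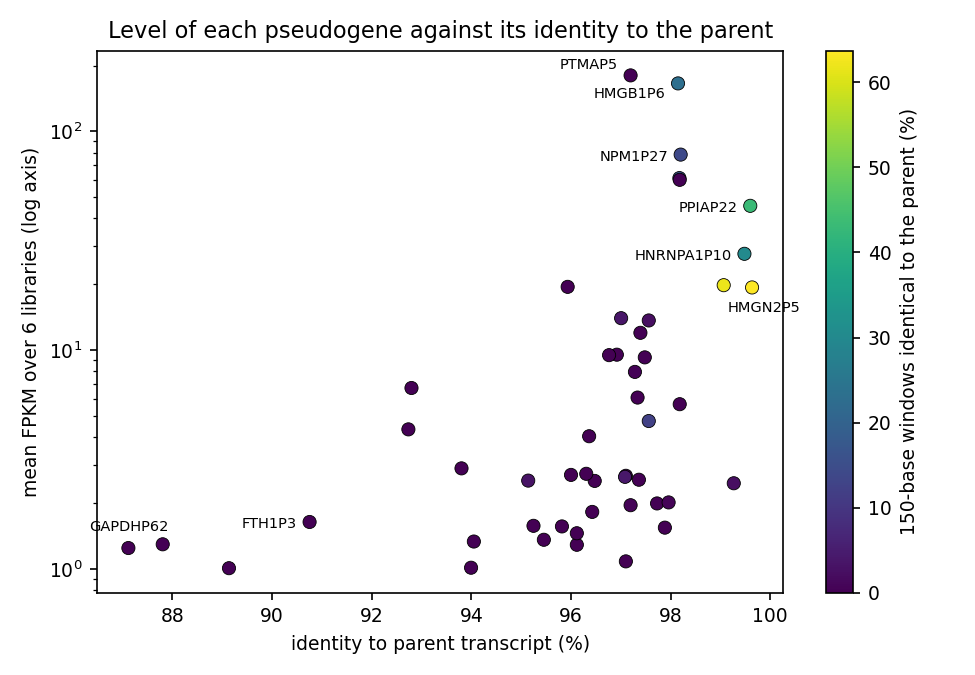
Mean FPKM over the 6 libraries (log axis) of each of the 49 copies against its percent identity to the parent transcript, coloured by the percent of 150-base windows identical to the parent. The copies above 20 FPKM all lie above 97% identity, but PTMAP5, at the top, has no window in common with PTMA.

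By position, 3 copies overlapped an exon of a gene on the same strand (GAPDHP62, HNRNPA1P16 and NPM1P7), 11 lay in an intron of one, 19 lay on the opposite strand of a gene only and 16 in no protein-coding or long noncoding gene. The median log2 fold changes of these sets were -0.14, -0.08, -0.23 and -0.25. A gene lay on the opposite strand of 21 copies, and for 8 of them such a gene had a mean of 1 FPKM or more. Whether fragments were counted by strand is not given in the sources used here, so the levels of those 8 are uncertain. For the 3 copies in a same-strand exon, the share of fragments from the host gene was not tested, so their levels are uncertain too. Nor was it tested for the 11 in a same-strand intron, of which the called copy FTH1P3 is 1.

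Other pseudogene families were read from the same fit. Of 112 pseudogenes of large-subunit ribosomal proteins, 34 were lower and 2 higher, with a median log2 fold change of -0.32. Of 56 of small-subunit ribosomal proteins, 21 were lower and 0 higher, with a median of -0.44. All 8 of EEF1A1 were lower, with a median of -1.21. Beside these, the 49 copies had 4 lower (8.16%). Over all genes tested 2.10% were lower, and over all pseudogenes tested 13.3%. The 40 that did not derive from FTH1 had 0 called and a median of -0.16. At an unadjusted p below 0.05 in limma, 9 of the 40 were lower (22.5%) and 0 higher. By that measure 24.9% of all pseudogenes and 6.08% of all genes were lower, so the 40 were near pseudogenes at large. Under other settings GAPDHP1, YWHAZP10, HNRNPA1P4, NPM1P39, PTMAP4 or PPIAP29 passed as lower, or HNRNPA1P7 as higher. The difference between families was not tested.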

How the data were processed

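RNA was sequenced in 6 libraries of HCT116 cells, 3 infected with LV-NC and 3 with LV-SNORA28 (groups from the titles). As deposited by the authors, there was 1 table of FPKM per library, with at most 2 decimals. Per the submitters' processing notes, cutadapt 1.9, HISAT2 2.2.1, StringTie 2.1.6, DESeq2 and edgeR were used on hg38. The annotation release, the counting of reads that match several places, and the depth are not given in the sources used here. No 2 tables were identical.

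The 49 pseudogenes and the lists were chosen with earlier results of these data known. Symbols, biotypes and transcripts came from GENCODE 44 on GRCh38 (60401 of 60612 identifiers had a symbol). Named genes were the called copies, the most abundant copy of each stem, the 5 highest and 5 lowest fold changes, all parents and the 6 called relatives with the largest changes. Other copies described above or below with values, and PGK1 and PPIC, were outside this rule and were described after their values were seen.

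FPKM of the 12076 genes averaging 1 or more were transformed to log2(FPKM + 1), which understates the change of low genes, and tested with limma 3.58.1 in R 4.3.3 (lmFit, eBayes with a trend, two-sided, Benjamini-Hochberg over all 12076). Copies were aligned to protein-coding transcripts with BLAST 2.17.0, and windows of 150 bases were compared with the parent and the genome in Python 3.11.15. Ratios were tested with exact two-sided permutations. The alternatives tried were other scalings, filters, pseudocount and trend settings, a replicate block, removal of GC and length trends and each library left out.

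Replicate numbers were not treated as pairs, because same-numbered libraries did not deviate together. Sequences of the ferritin copies are not reported here.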

Additional observations from a re-analysis of the deposited data

How the results depend on the processing

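All 4 FTH1 copies were called in every alternative except the filter at a mean of 5 FPKM, which left 20 copies, FTH1P11 alone of the 4 among them, and called 1. All 9 FTH1 copies had a log2 fold change below 0 in every alternative that tested them, the highest being -0.0627 for FTH1P20 without LV-NC replicate 2. Copies of other parents were called lower with quantile normalization (GAPDHP1, adjusted p = 0.0485, and YWHAZP10, 0.0475), after GC and length trends were removed (HNRNPA1P4, 0.0487, and NPM1P39, 0.0443) and with no variance trend (HNRNPA1P4, 0.0477), which made 6, 6 and 5 called copies in limma. Leaving out each library gave 4 to 5 called copies, PTMAP4 or PPIAP29 being the fifth. Parents called, 0 as reported, were 3 with quantile normalization, 7 with every library scaled to the same FPKM sum, 2 with the filter at 5 FPKM and 0 to 2 without single libraries. The median log2 fold change of the copies (-0.21) was -0.30 with quantile normalization, -0.11 at equal sums, -0.13 with the filter at 5 FPKM, -0.30 with a pseudocount of 0.1 and -0.24 to -0.17 without single libraries. The median of all genes was 0.20 at equal sums. The median difference from the parent (-0.30) was -0.19 after GC and length trends were removed and -0.40 to -0.21 without single libraries. The log2 ratio of the summed copies (-0.07) was 0.0819 at equal sums and -0.14 to -0.02 without single libraries. The difference in the percent of parents (-1.03 percentage points) was 0.0163 with the filter at 5 FPKM and -1.21 to -0.90 without single libraries. Chosen after the data were seen, leaving out FTL and its copy gave -0.568 percentage points, and leaving out FTH1 and its copies gave -0.925. In all these, the cause was not tested.

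Replicate numbers did not pair the libraries (the correlations of deviations were -0.04, 0.09 and 0.01). With the replicate block, 5 copies were called (FTH1P2 was added, adjusted p = 0.0393 in limma), 1 parent was called (HSPD1, adjusted p = 0.0496) and 510 genes in all, against 1076 without it. Calls over all genes were 397 of 32761 without a filter and 279 to 628 without single libraries. HNRNPA1P7 was called higher at equal sums (0.41, adjusted p = 0.0427 in limma).

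Of the values for single named genes, 726 kept their direction and side of the threshold, 20 passed the threshold newly, 8 no longer passed it and 45 changed direction, none of these having been called. With quantile normalization HNRNPA1P10 was -0.0446, HSPD1P1 -0.0561, KRT8P33 -0.016, ACTB -0.00791 and HMGN2 -0.0112. After GC and length trends were removed, HNRNPA1P10 was -0.0166, HSPD1P1 -0.12, PPIA -0.00471, TUBA1C -0.00844 and HMGN2 -0.0764. At equal sums NPM1P27 was 0.068, PTMAP5 0.0785, YWHAZP3 0.0915, GAPDH 0.0374, TPT1 0.0733, KRT18 0.0387 and NACA 0.0462. Without single libraries the ranges that crossed 0 were -0.0504 to 0.67 for HMGB1P10, -0.00882 to 0.55 for HMGB1P5, -0.13 to 0.26 for HMGB1P6, -0.0608 to 0.10 for HNRNPA1P10 and -0.0904 to 0.14 for HSPD1P1. They were -0.11 to 0.23 for KRT8P33, -0.0928 to 0.29 for PPIAP22, -0.18 to 0.0225 for PTMAP5, -0.71 to 0.0497 for TUBBP1 and -0.11 to 0.11 for YWHAZP3. For parents they were -0.37 to 0.0879 for FTH1, -0.077 to 0.18 for ACTB, -0.0282 to 0.24 for KRT8, -0.0988 to 0.15 for HMGN2, -0.61 to 0.0508 for TUBA1A, -0.00712 to 0.22 for TUBA1B, -0.0135 to 0.17 for TUBA1C and -0.26 to 0.00272 for NACA.

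The depth is unknown, so no counting error is given for the low copies. A copy that was not called is not shown to be equal in both groups.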

Other observations

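Below the level, 613 pseudogenes of the same stems remained, of which 363 were listed at 0 in every library. Together they summed to 26.0 ± 1.79 FPKM (SD, n = 3) with LV-NC against 21.5 ± 0.346 FPKM (SD, n = 3) with LV-SNORA28, without overlap. In limma on the 32761 genes that were above 0 anywhere, 0 of the 250 that were above 0 were called, where the share over all those genes was 1.21%. Of the 250, 136 (54.4%) had a log2 fold change below 0, against 38.9% of all, and their median was -0.0046. Of 19 stems with low copies above 0, the summed levels overlapped for 15, of which 5 had the higher mean in LV-SNORA28. They lay wholly lower in LV-SNORA28 for HNRNPA1P (2.84 ± 0.356 against 1.85 ± 0.0777 FPKM, SD, n = 3), KRT8P (3.79 ± 0.340 against 2.82 ± 0.630 FPKM, SD, n = 3), NPM1P (2.36 ± 0.150 against 1.92 ± 0.273 FPKM, SD, n = 3) and PTMAP (0.52 ± 0.182 against 0.103 ± 0.0945 FPKM, SD, n = 3). Among single genes at a mean of 1 FPKM or more, 8.16% of all genes and 24.3% of all pseudogenes lay wholly lower. No such share was computed for summed levels. KRT18, a keratin, had 67 annotated copies, and none of them reached 1 FPKM, although KRT18 itself stood at 150 to 169 FPKM.

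Of 58 relatives of the parent genes that were tested, 4 were higher (6.90%, background 6.81%) and 4 lower (background 2.10%) at an adjusted p below 0.05 in limma. HNRNPA1L2, an HNRNPA1-like gene, rose from 1.80, 2.19 and 1.80 FPKM in LV-NC to 14.63, 12.00 and 11.53 FPKM in LV-SNORA28 (log2 fold change 2.22, adjusted p = 0.00103 in limma). TFRC, the transferrin receptor that brings iron into cells, rose from 12.00, 9.99 and 12.71 FPKM to 27.71, 26.81 and 19.91 FPKM (log2 fold change 1.03, adjusted p = 0.0127 in limma), and without LV-SNORA28 replicate 2 its adjusted p was 0.0533. BTF3L4, a relative of a nascent chain-binding factor, rose by 1.34 on the log2 scale, and PGK1, an enzyme of glycolysis, rose by 0.34 (adjusted p = 0.0251, and up to 0.0952 without single libraries). KRT7 fell by 0.82 (adjusted p = 0.0177, or 0.0527 without LV-NC replicate 2), PPIB fell by 0.52, PPIC fell by 0.32 (adjusted p = 0.0447, and up to 0.126 without single libraries) and EEF1A1 fell by 0.47 on the log2 scale (adjusted p = 0.0150 in limma). The call for EEF1A1 was lost without LV-NC replicate 3 (adjusted p = 0.0536), LV-SNORA28 replicate 2 (0.0729) or LV-SNORA28 replicate 3 (0.0656), and with quantile normalization its log2 fold change was -0.06.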
